A study of Mus musculus with 4 samples.

Results

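Immature olfactory sensory neurons that already transcribe a receptor were selected on the counts of their own transcripts from dissociated mouse olfactory epithelium. A cell was taken when it held at least 500 detected genes, at most 10% of its unique molecular identifiers (UMIs, each standing for 1 captured transcript) from mitochondrial genes, at least 5 UMIs of Gap43, at most 1 of Omp, at most 1 of Olig1 and Olig2 together, and at least 3 of 1 or more Olfr genes. Of the 9126 cells deposited, 494 passed, and they are called receptor cells here. They numbered 215 of 2703 cells at postnatal day 0 (P0), 123 of 3220 at P3, 125 of 1787 at P7 and 31 of 1416 at P21. The comparison cells, called receptor-free, passed the same gate with 0 UMIs over all Olfr genes and numbered 34, 23, 11 and 2 at P0, P3, P7 and P21, 70 in all. A further 150 gated cells lay between, with 1 or 2 UMIs of their leading receptor. The cells were thus chosen by their Gap43, Omp, Olig and Olfr counts, which are given as a description only.

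The mice were of the outbred CD-1 stock, with no genotype or treatment distinguishing them, and the epithelium was dissociated with papain. Cells were sorted before capture, by a gate that the labels do not name, and run on the 10x Chromium 3′ v2 platform. Each age gave 1 library, and the number and sex of the mice in it are not stated. Age and library therefore cannot be told apart, and no difference between ages has a replicate check.

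Each olfactory sensory neuron of the mouse comes to express 1 receptor gene out of a very large family, which lies in clusters on many chromosomes. Receptor protein in the endoplasmic reticulum triggers part of the unfolded protein response, through the kinase PERK and the factor ATF5, and this feedback is known to hold the choice in place while the neuron matures. Gap43, Gng8 and Stmn2 are growth and signalling genes of the immature stage, and Omp marks maturity. Class I receptors form 1 cluster and are mostly expressed in the dorsal zone of the epithelium, where Nqo1 and Acsm4 are expressed, while class II receptors make up the rest of the family.

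In order of age the receptor cells held 767857, 703620, 685047 and 180976 UMIs in total, with medians of 3611, 5784, 5727 and 5966 per cell. The receptor-free cells were shallower, with medians of 3286.5, 4687, 5170 and 2935 UMIs. Cells of fewer UMIs are more likely to show 0 receptor UMIs, so the gate itself sorts in part by depth. The P0 and P3 libraries shared 68 cell barcodes, and 1, 2, 1 and 0 receptor cells at the 4 ages carried a shared barcode. Markers of other cell types were low: 1 receptor cell at P3 held 127 UMIs of ensheathing glia genes, and 2 at P7 held horizontal basal cell genes, with at most 28 UMIs.

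The immature markers that the gate did not use, Gng8 and Stmn2, were high in receptor cells, a trait the receptor-free cells share. Gng8, a G protein gamma subunit, stood at 1616, 1342, 1050 and 1404 UMIs per 1000000 UMIs of the group (CPM) in receptor cells at P0, P3, P7 and P21, against 567, 367, 389 and 237 CPM in cells outside the gate. Stmn2, a microtubule regulator of growing neurites, stood at 4626, 5013, 4849 and 5233 CPM in receptor cells, against 1556, 1241, 1531 and 1062 CPM outside the gate. Receptor cells were above the cells outside the gate at every age for both genes. Receptor-free cells of the same gate held 1310, 1440, 998 and 852 CPM of Gng8 and 4503, 5215, 4031 and 1704 CPM of Stmn2. For both genes they lay above the receptor cells at P3 and below them at P0, P7 and P21. Every receptor cell held a UMI of Stmn2, while Gng8 was at 0 in 11, 11, 12 and 5 of them. Of the mature markers, Cnga4, Adcy3 and Stoml3 were lower in receptor cells than outside the gate at every age. Cnga2 was not, with 277, 240, 199 and 304 CPM in receptor cells against 287, 176, 287 and 845 CPM outside. Summed together with Omp, the mature markers reached 5 or more UMIs in 21, 18, 9 and 11 receptor cells.

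Receptor cells made up 66.8%, 66.5%, 75.3% and 75.6% of the gated cells at P0, P3, P7 and P21, with exact binomial intervals of 61.3 to 71.9%, 59.2 to 73.2%, 68.0 to 81.7% and 59.7 to 87.6%. These intervals, like all others here, are 95% intervals that cover counting error only. All 4 overlapped. As a background for free RNA in the droplets, 776 stromal cells, taken by at least 5 collagen UMIs and 0 of Gap43, included 2 with a receptor at 3 or more UMIs, or 0.258%. Any Olfr UMI at all was found in 24.2% of the stromal cells, at a median of 3454.5 UMIs per cell, and in 90.2% of the gated cells, at a median of 4284.5. The limit of 3 UMIs was not a natural gap: 45 gated cells sat just inside it at 3 UMIs, with 37 just outside at 2 and 113 at 1. At the other borders of the gate, 22 receptor cells held exactly 5 Gap43 UMIs and 21 otherwise passing cells held 4, while 134 receptor cells held 1 Omp UMI and 83 otherwise passing cells held 2.

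The leading receptor of a cell had a median of 11 UMIs, with quartiles of 6 and 21.75 and a range of 3 to 145. Taken by age, P0 first, the median was 8, 13, 14 and 14 UMIs, and the highest cells reached 145, 118, 121 and 71. Set against each cell's depth, the leading receptor took a median of 23.5, 24.0, 28.8 and 26.5 UMIs per 10000 at the 4 ages. This step after P0 was proportionally smaller than in raw UMIs. The P0 library was the shallowest, and the part of depth in the step was not tested. Mature neurons of the same libraries, taken by at least 5 Omp and at most 1 Gap43 UMIs, had a median leading receptor of 24 UMIs, or 64.2 per 10000, well above the receptor cells of each age. Of the 1555 mature neurons, 1362 (87.6%) passed the receptor limit.

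**Figure D1:**
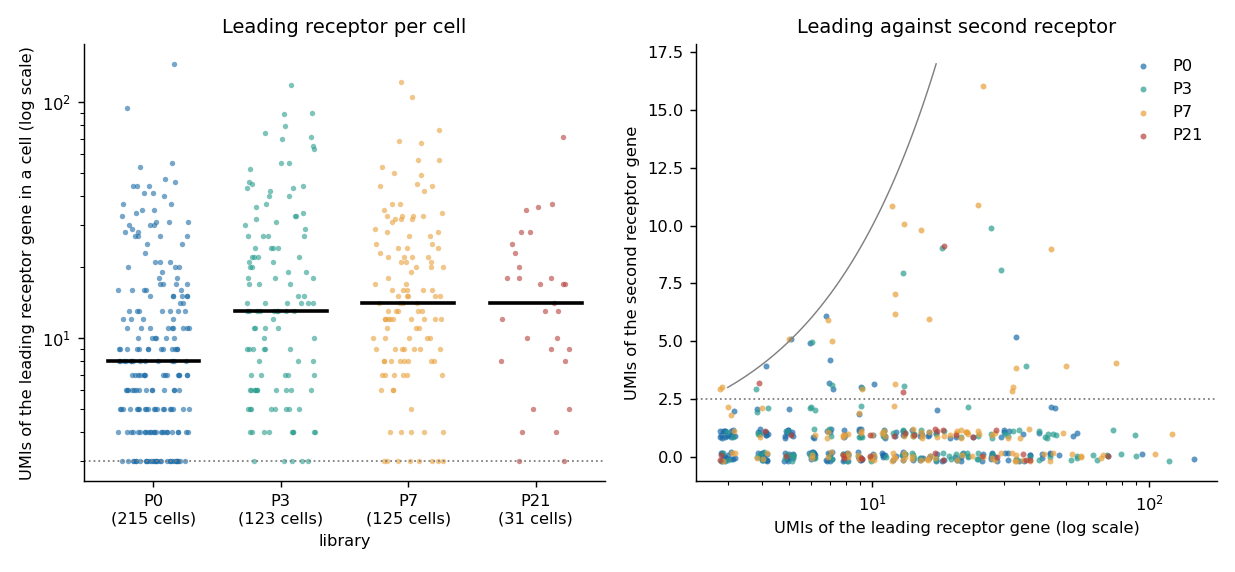
UMIs of the leading receptor in each receptor cell by age (left, log axis; 1 point per cell, black bar the median, dotted line the limit of 3 UMIs) and UMIs of the leading receptor against the next one in the same cell (right, log horizontal axis, points shifted slightly to separate them, dotted line just under the limit of 3 for the next receptor, grey line equal UMIs). Medians by age are 8, 13, 14 and 14 UMIs, the range within each age is far wider than the steps between ages, and 44 cells lie past the limit for the next receptor.

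Many different receptors were in use. Of 1419 Olfr genes in the tables, 514 had a UMI in a receptor cell and 369 (26.0%) led at least 1 cell. Most of these were seen once: 277 led 1 cell, 66 led 2 cells, and 26 led 3 or more. Leading genes recurred between ages, with 62 leading cells in at least 2 libraries, 10 in 3 libraries and 0 in all 4. The leading receptor gene carried "-ps", the mark of a pseudogene in this naming, in 31 cells. Chromosome 7, which carries the class I cluster, held the leading gene of 26.5% of receptor cells and 20.5% of all Olfr genes in the tables. The shares were 24.9% of cells and 25.9% of genes on chromosome 2, and 14.0% of cells and 12.1% of genes on chromosome 9.

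The receptors that led the most cells did so in only 3 to 5 cells each. Olfr1006 led 4 cells at P0, with 8, 9, 7 and 7 UMIs, and 1 cell at P21, with 20 UMIs. Olfr610, a class I receptor, led a P0 cell with 25 UMIs, a P7 cell with 28, and P21 cells with 36 and 71. Per 10000 UMIs of the cell, Olfr1006 took 18.8 to 47.9 in its P0 cells and 29.0 in its P21 cell, and Olfr610 took 74.96 at P0, 47.8 at P7 and 47.4 and 79.2 at P21, so the ages overlapped for both. Olfr1270 led cells with 17 UMIs at P0, 10 and 14 at P7, and 17 at P21. Olfr243 led 3 cells with 37, 35 and 17 UMIs, all of them at P21. Olfr1340 led 2 P0 cells with 37 and 44 UMIs and a P7 cell with 33. The other 5 of the 10 listed were Olfr309, Olfr969, Olfr857, Olfr1437 and Olfr116, with 3 to 34 UMIs per cell. As 26 genes led 3 or more cells, ties were ranked by summed UMIs. Olfr668, not listed, equalled Olfr116 with 3 cells and 72 UMIs. With so few cells per gene, no receptor's frequency could be compared between ages at this depth.

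Most receptor cells showed a single dominant receptor. In 53.2% of them every Olfr UMI came from 1 gene, with 57.7%, 53.7%, 45.6% and 51.6% at P0, P3, P7 and P21. Summed over all receptor cells, the leading gene accounted for 93.2% of receptor UMIs. A lower-ranked receptor that also reached 3 UMIs was found in 44 cells, or 8.91% (6.55 to 11.8%), and 4 of these had 3 or more such receptors. By age the shares were 4.65%, 8.13%, 16.8% and 9.68%, and the P7 interval of 10.7 to 24.5% did not overlap the P0 interval of 2.25 to 8.39%. Median depth per cell was 3116.5, 5068.5, 5199 and 5377 UMIs in cells with several receptors, against 3615, 5883, 5766.5 and 6257.5 UMIs in cells with 1, and the part of depth in the difference between ages was not tested. Of the mature neurons with a receptor, 9.29%, 6.53%, 5.26% and 3.77% had several at the same limit at the 4 ages.

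The next receptor of those 44 cells had a median of 47.9% of the leading one's UMIs, ranging from 5.26 to 100%. It reached at least 50% of the leader in 22 cells and stayed under 10% in 4, and it sat at exactly 3 UMIs in 16. In 16 cells both genes lay on 1 chromosome, and in 9 within 100000 bp. Neighbouring pairs included Olfr611 with 44 UMIs and Olfr612 with 9, whose genes lie 20757 bp apart, and Olfr311 with 24 and Olfr312 with 11, at 10014 bp. Olfr873 and Olfr18, 13620 bp apart, occurred together in 2 cells, with 15 and 10 UMIs in 1 of them and 32 and 3 in the other. More distant pairs included Olfr1215 with 12 UMIs and Olfr397 with 11, and Olfr566 with 25 and Olfr607 with 16, class I genes 600189 bp apart. The part of droplets that hold 2 cells in these pairs was not tested.

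Receptors of other families were close to absent from the receptor cells. Trace amine-associated receptors (Taar, 16 genes), which some olfactory neurons choose in place of an odorant receptor, reached 2 or more UMIs in 0 of 494 receptor cells, with an exact upper bound of 0.744%. Among the 70 receptor-free cells they did so in 4, or 5.71% (1.58 to 14.0%): Taar9 at P0 and in 2 cells at P3, and Taar6 at P7. None of the 150 intermediate cells and the 776 stromal cells reached 2 UMIs, while 4 and 1 of them held a single Taar UMI. Vomeronasal Vmn2r genes reached 2 UMIs in 0 receptor cells, in 2 receptor-free cells and in 3 intermediate cells, and Vmn1r, Fpr and Gucy2d in none. In 1 receptor cell at P3 the gene Ms4a6b, of a family expressed in a separate set of chemosensory neurons, had 9 UMIs.

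Receptor cells and receptor-free cells of the same libraries differed in few of the genes that could be tested. Among the called genes, 3 genes of the unfolded protein response were higher in receptor cells, the axon molecule Cntn4 was higher, and the transcriptional regulators Nhlh2, Lmo4 and Lmo2 were lower. UMIs were summed per library and cell group, and the 8 sums were tested with edgeR's quasi-likelihood test with the library as a block and Benjamini-Hochberg adjustment, leaving out Olfr and gate genes. Of 2752 genes tested, 9 (0.327%) were higher and 9 (0.327%) lower in receptor cells at an adjusted p under 0.05. The 4 ages served as replicates, and the receptor-free sum at P21 came from 2 cells with 5870 UMIs. Each called gene had only 0 to 5 UMIs in that sum, so its P21 value is printed but the groups are described over P0, P3 and P7. This comparison was fragile: DESeq2 called 0 genes, with 64 at an unadjusted p under 0.05 against 153 in edgeR. Without the P21 library edgeR called 0 of 5550 genes, with 305 at an unadjusted p under 0.05, and over the 2752 genes alone it called 1 higher and 4 lower.

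Ddit3, which encodes the stress-response factor CHOP, stood at 402, 287, 413 and 287 CPM in receptor cells at P0, P3, P7 and P21, against 182, 234, 57.6 and 0 CPM in receptor-free cells. Receptor cells were higher at P0, P3 and P7 without overlap, with the narrowest gap at P3, and the 0 UMIs at P21 allow up to 628 CPM. The log2 difference was 1.07 ± 0.23 (SE), with an adjusted p of 0.0016 in edgeR. Ppp1r15a, the phosphatase subunit GADD34 that restores translation after stress, stood at 638, 611, 692 and 259.7 CPM in receptor cells, against 390.4, 448, 249.6 and 0 CPM in receptor-free cells. It too was higher at P0, P3 and P7 without overlap, although the P21 receptor cells lay below the P0 and P3 receptor-free cells, and its log2 difference was 0.77 ± 0.18 (adjusted p = 0.00688, edgeR). Herpud1, a membrane protein of the endoplasmic reticulum that helps degrade misfolded proteins, stood at 733, 567, 607 and 425 CPM, against 555, 399, 230.4 and 0 CPM in receptor-free cells (log2 difference 0.64 ± 0.18, adjusted p = 0.0436, edgeR). Receptor cells were higher within P0, P3 and P7, and the groups did not overlap over these ages. Of 20 alternatives, Ddit3 passed in 12, Ppp1r15a in 11 and Herpud1 in 7, and of the 4 that left out a library, in 1, 1 and 0.

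**Figure D2:**
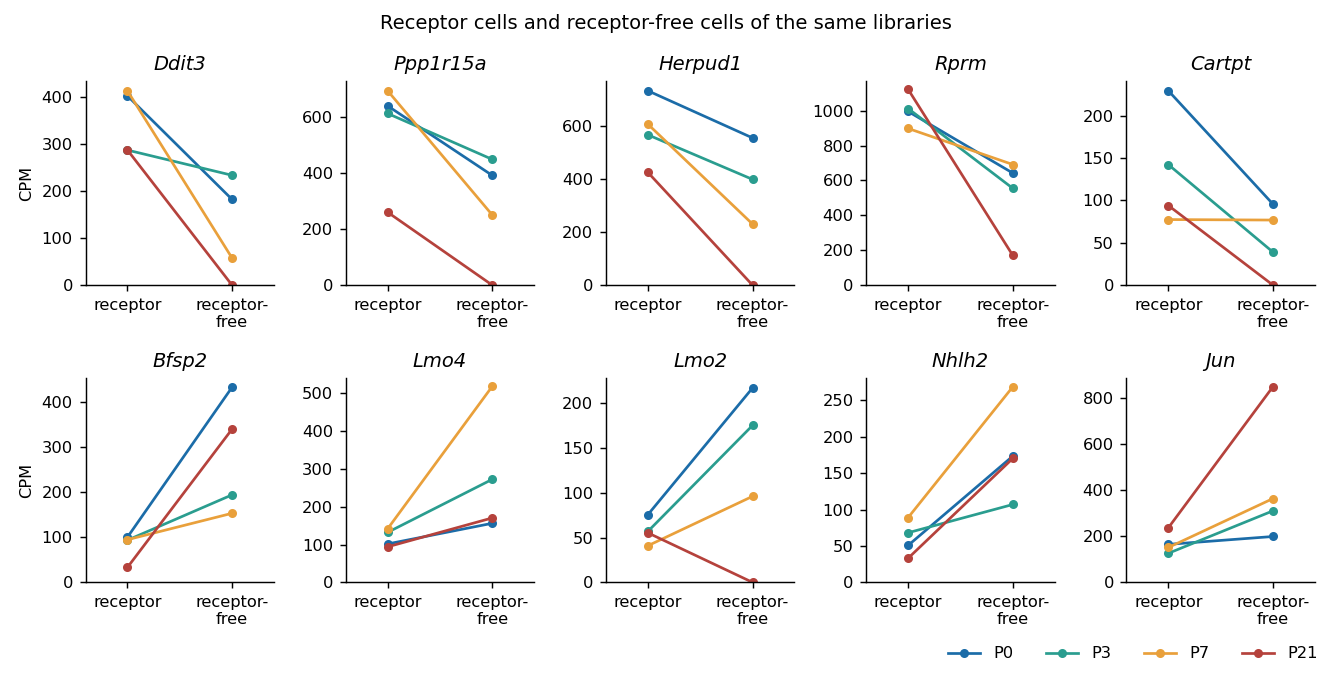
CPM of 5 genes higher (top) and 5 lower (bottom) in receptor cells, drawn left, than in receptor-free cells of the same library, drawn right; lines join the 2 groups of a library, coloured by age. Every line in the top row slopes down to the right, although Cartpt at P7 is nearly flat, and in the bottom row every line slopes up except Lmo2 at P21, where the receptor-free sum held 2 cells and 0 to 5 UMIs of each gene.

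The unfolded protein response list as a whole was less one-sided. Of its 31 genes, 20 were tested, 3 rose (those described) and 0 fell, against 0.327% each way of all tested genes, with a median log2 difference of 0.11 against 0.02 over all tested genes. Atf5, the translated target of the feedback, stood at 1434, 2807, 2321 and 2824 CPM in receptor cells and 1388, 3152, 1613 and 1874 CPM in receptor-free cells. The groups overlapped and P3 went the other way, with a log2 difference of 0.17 ± 0.15 and an adjusted p of 0.993 in edgeR. Hspa5, the chaperone BiP, had a log2 difference of -0.29, Trib3 of 0.89 ± 0.31 and the co-chaperone Dnajb9 of 0.83, and none of these passed. The histone demethylase Kdm1a, Lbr, Adcy3, the PERK gene Eif2ak3 and Ldb1 were too low to test. The transcripts tested here do not report translation of ATF5.

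The promoter windows of the 3 stress-response genes are shown because factors of this response are known to act through short DNA elements. Windows run from 250 bases before to 50 bases after the annotated start, from RefSeq on GRCm38.p6: Ddit3 at chr10:127290543-127290842 on the plus strand, Herpud1 at chr8:94386179-94386478 on the plus strand and Ppp1r15a at chr7:45526219-45526518 on the minus strand. The motifs listed next were searched on both strands, and capitals mark every match. The AP-1 site TGANTCA was found in 7.93% of the 27025 gene promoters of this length, the ATF4 composite site TGATGNAA in 4.06%, the antioxidant response core TGACNNNGC in 12.5%, the Olf/Ebf core CCCNNGGG in 13.4%, and the ER stress element in 0.13%.
Ddit3: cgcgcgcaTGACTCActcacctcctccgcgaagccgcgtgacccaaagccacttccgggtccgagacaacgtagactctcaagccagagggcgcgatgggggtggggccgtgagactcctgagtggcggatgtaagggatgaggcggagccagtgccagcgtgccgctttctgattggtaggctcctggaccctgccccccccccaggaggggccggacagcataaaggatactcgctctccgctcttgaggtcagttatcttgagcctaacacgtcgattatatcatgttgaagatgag
Herpud1: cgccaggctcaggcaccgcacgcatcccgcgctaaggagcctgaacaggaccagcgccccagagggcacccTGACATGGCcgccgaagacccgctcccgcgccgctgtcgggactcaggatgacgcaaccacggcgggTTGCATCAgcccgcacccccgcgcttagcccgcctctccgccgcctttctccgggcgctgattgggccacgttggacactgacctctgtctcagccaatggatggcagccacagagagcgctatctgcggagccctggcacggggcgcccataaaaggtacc
Ppp1r15a: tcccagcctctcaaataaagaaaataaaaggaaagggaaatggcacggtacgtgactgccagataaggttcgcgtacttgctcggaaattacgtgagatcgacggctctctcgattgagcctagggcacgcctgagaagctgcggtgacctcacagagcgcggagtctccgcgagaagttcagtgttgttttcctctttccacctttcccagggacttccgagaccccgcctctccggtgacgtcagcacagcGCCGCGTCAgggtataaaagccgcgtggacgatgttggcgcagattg
The Ddit3 window held an AP-1 site that begins 242 bases before the start. The Herpud1 window held an ATF4 composite site on the minus strand, beginning 112 bases before the start, and an antioxidant core at 179 bases before it. The Ppp1r15a window held an antioxidant core on the minus strand, 3 bases past the start. No 2 matches overlapped, and none of the windows held the ER stress element in the exact letters searched. Other forms of that element, or forms with a changed letter, were not part of the search. Read by eye, the Ddit3 window (minus strand) and the Herpud1 window (plus strand) each held the element with a single changed letter. The Herpud1 window also held the element's opening letters, reversed and complemented, a single base before its closing letters. These stretches are not in capitals, and further forms may be present. How common such forms are among all promoters was not counted. A match or its absence in these letters shows neither binding nor its lack.

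Among the other genes that rose, Rprm, known for its part in cell-cycle arrest, stood at 995, 1012, 898 and 1122 CPM in receptor cells, against 642, 555, 691 and 170.4 CPM in receptor-free cells. Over P0, P3 and P7 the groups did not overlap, and the log2 difference was 0.71 ± 0.17 (adjusted p = 0.00688, edgeR). Cntn4, a contactin that takes part in sorting olfactory axons, stood at 336, 289, 359 and 287 CPM, against 174, 185, 192 and 170.4 CPM in receptor-free cells. Over P0, P3 and P7 these groups did not overlap either (log2 difference 0.83 ± 0.23, adjusted p = 0.0436, edgeR), but Cntn4 passed in only 5 of 20 alternatives and in 0 of 4 that left out a library. The P21 values of both genes in receptor-free cells are 1 UMI each, with an interval of 4.31 to 949 CPM. Cartpt, a neuropeptide precursor, stood at 229, 142, 77.4 and 93.9 CPM, against 95.4, 38.9, 76.8 and 0 CPM in receptor-free cells, with a log2 difference of 1.26 ± 0.34 (adjusted p = 0.0436, edgeR) and no gap at P7. Rprm passed in 13 of 20 alternatives and Cartpt in 5 of 17, and in 1 and 0 of the 4 that left out a library. The dorsal-zone enzyme Nqo1 and the osteocalcin-related Bglap3 passed the main test as well but were higher in only 3 of the 4 libraries, and Bglap3 has near-identical copies that leave its counts uncertain.

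Of the genes that were lower in receptor cells, the filament gene Bfsp2, best known from the lens, had the lowest adjusted p. It stood at 100.3, 93.8, 94.9 and 33.2 CPM in receptor cells at P0, P3, P7 and P21, against 434, 195, 154 and 341 CPM in receptor-free cells. Over P0, P3 and P7 the groups did not overlap, and the log2 difference was -1.55 ± 0.25 (adjusted p = 1.1e-06, edgeR). Bfsp2 passed in 15 of 19 alternatives and in 2 of the 4 that left out a library. Split by the leading receptor, it had at P0 434 CPM at 0 receptor UMIs, 204 at 1 or 2, 161 at 3 to 9 and 15.7 at 10 or more. The same grades stood at 195, 338, 137 and 70.4 CPM at P3, at 154, 82.0, 201 and 51.4 CPM at P7 and at 341, 0, 81.0 and 15.2 CPM at P21. The steps thus ran down in order only at P0, while cells with 10 or more receptor UMIs were the lowest grade at P0, P3 and P7.

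Lmo4, a LIM-only adaptor of transcription factors, stood at 102, 132, 142 and 93.9 CPM in receptor cells, against 156, 272, 518 and 170.4 CPM in receptor-free cells. Over P0, P3 and P7 the groups did not overlap (log2 difference -1.18 ± 0.24, adjusted p = 0.000651, edgeR). Nhlh2, a basic helix-loop-helix factor of young neurons, stood at 50.8, 68.2, 89.0 and 33.2 CPM in receptor cells, against 174, 107, 269 and 170.4 CPM in receptor-free cells. It was again lower at P0, P3 and P7 without overlap, with a log2 difference of -1.39 ± 0.30 (adjusted p = 0.0016, edgeR). Lmo2, the related LIM-only protein, was lower at P0, P3 and P7, with 75.5, 56.8 and 40.9 CPM against 217, 175 and 96.0 in receptor-free cells. At P21 Lmo2 had 55.3 CPM in receptor cells and 0 in the 2 receptor-free cells. Jun, an AP-1 subunit and an immediate-early gene that cell dissociation can induce, stood at 165, 126, 152 and 238 CPM in receptor cells, against 199.6, 311, 365 and 852 CPM in receptor-free cells (log2 difference -0.94 ± 0.22, adjusted p = 0.00688, edgeR). It was lower within each age, and over P0, P3 and P7 the groups did not overlap. Lmo4 passed in 13 of 20 alternatives, Nhlh2 in 12 of 19 and Jun in 8 of 20, and in 2, 1 and 1 of the 4 that left out a library. Lmo2 passed in 10 of 14 alternatives and in 1 of 3 that left out a library.

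The remaining genes that fell were the kinase regulator Pebp1, by 0.84 on the log2 scale, the copper chaperone Atox1, by 0.64, the membrane protein Ifitm2, by 0.72, and the collagen gene Col9a2, lower in 3 of 4 libraries. Of the alternatives, Pebp1 passed in 11 of 20, Atox1 in 7 of 20, Ifitm2 in 6 of 20 and Col9a2 in 9 of 18. Of the 4 that left out a library, they passed in 2, 0, 0 and 2. Ensheathing glia markers summed to 671 CPM in the receptor-free cells at P3 against 192 CPM in the receptor cells, with 2 receptor-free cells holding 5 or more such UMIs. Without all cells carrying 5 or more UMIs of other cell types' markers, 5 genes were higher and 7 lower. Without cells lacking Gng8, 5 were higher and 5 lower. In cells matched for depth, which left 34, 23, 11 and 2 receptor cells at the 4 ages, 0 of 1594 genes passed. The loss of cells and the matching of depth cannot be told apart there. In cells of 3000 to 9000 UMIs 7 of 2528 genes were higher and 7 lower, all 14 also called in the main test. The P21 receptor-free sum was then 1 cell.

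The other lists held few or no called genes, and their counts stand against 0.327% higher and 0.327% lower among all tested genes. The neuronal precursor list had 1 lower gene, Nhlh2, of 9 tested, and the immediate-early list 1 lower, Jun, of 4. Cntn4 was the 1 higher gene of 9 tested for axon guidance and sorting, and Nqo1 the 1 of 2 tested zone genes. None passed among 3 receptor trafficking genes, 6 odour transduction genes, 20 growth cone genes, 11 transcription factors of receptor choice, 11 chromatin genes, 15 cilia genes, 6 presynaptic genes, 18 oxidative phosphorylation genes, 83 ribosomal protein genes and the 1 S phase gene tested, and no G2/M gene was high enough to test. The transduction genes had a median log2 difference of 0.53: Gng13, the olfactory G protein gamma subunit, was higher at P0, P3 and P7 and had 3 UMIs in the P21 receptor-free cells, with 1222, 1238, 727 and 973 CPM in receptor cells against 885, 876, 499 and 511 CPM in receptor-free cells, but its adjusted p was 0.112 in edgeR.

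Receptor cells were then split by the class of their leading receptor, a comparison added after the data were seen. Cells that led with a class I receptor numbered 34, 23, 14 and 9 at P0, P3, P7 and P21, or 80 in all (16.2%, 13.1 to 19.7%), against 411 cells that led with a class II receptor. Another 3 cells led with a receptor whose place was not given. Class I was taken as the Olfr genes between Olfr543 and Olfr692 on chromosome 7, 156 of the 1399 placed genes. Class I cells had a leading receptor of 10.5, 22, 20.5 and 28 UMIs in the median at the 4 ages, against 7, 13, 13 and 12.5 UMIs in class II cells. Their total depth was close, with medians of 3335, 5883, 5723 and 6620 UMIs per cell against 3615, 5780, 5727 and 5798.

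More genes passed between the classes than between receptor and receptor-free cells, with more cells in the smaller group. Of 2418 genes tested as before, 182 (7.53%) differed: 89 (3.68%) were higher and 93 (3.85%) lower in class I cells. Genes of the dorsal zone, the microtubule protein gene Tppp3 and several neurite genes were higher, while the transcription factors Bcl11b and Nfix, the transduction subunit Gng13 and many ribosomal protein genes were lower. DESeq2 called 21 higher and 25 lower genes, all 46 of them also called by edgeR.

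Tppp3, a tubulin polymerization promoting protein, had the largest difference. It stood at 456, 682, 735 and 336 CPM in class I cells at P0, P3, P7 and P21, against 29.3, 26.6, 20.1 and 8.04 CPM in class II cells. The groups lay more than 10-fold apart at every age, with a log2 difference of 4.60 ± 0.21 (adjusted p = 5.6e-21, edgeR). Acsm4, an acyl-CoA synthetase of the dorsal zone, stood at 751, 644, 342 and 848 CPM in class I cells, against 58.5, 28.3, 38.4 and 16.1 CPM in class II cells, without overlap (log2 difference 3.92 ± 0.20, adjusted p = 1.4e-19, edgeR). Nqo1, the dorsal-zone quinone reductase, stood at 1021, 367, 367 and 459 CPM, against 231, 97.4, 112 and 96.5 CPM in class II cells (log2 difference 2.02 ± 0.14, adjusted p = 1.1e-14, edgeR). Within every library the class I cells were higher for both zone genes.

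The zone genes were also shared out by cell. A UMI of Acsm4 was found in 70.6%, 91.3%, 64.3% and 88.9% of class I cells at the 4 ages, against 9.94%, 7.07%, 12.8% and 4.55% of class II cells. Nqo1 was found in 64.7%, 60.9%, 50% and 77.8% of class I cells, against 28.2%, 32.3%, 28.4% and 13.6% of class II cells. As a background for free RNA, stromal cells held a UMI of Acsm4 in 3.87%, 3.66% and 2.01% and of Nqo1 in 9.68%, 11.2% and 8.05% at P0, P3 and P7, at median depths of 2272, 3920 and 4102 UMIs. These shares were below those of both classes, and so were the depths. At P21 only 7 stromal cells were available. Ncam2, the adhesion molecule of the other zones, was too low to test, with 8.44, 15.0, 50.7 and 0 CPM in class I cells against 57.0, 58.4, 68.5 and 129 CPM in class II cells.

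Cfap126, a gene of motile cilia, stood at 363, 389, 177 and 459 CPM in class I cells, against 90.9, 77.9, 68.5 and 113 CPM in class II cells, again without overlap (log2 difference 2.01 ± 0.19). Serpina1b, 1 of several near-identical protease inhibitor copies and uncertain for that reason, stood at 109.7, 105, 152 and 300.4 CPM, against 15.9 to 32.2 CPM in class II cells. Other called genes that rose were the RNA-binding factor Celf4 (log2 difference 1.52), the heparan sulfate enzyme Hs3st5 (1.51), the G protein subunits Gnb2 (1.35) and Gng3 (1.13), the cell-cycle inhibitor Cdkn1a (1.05), the sulfotransferase Sult1d1 (1.03), the glycolytic enzyme Aldoa (0.93) and the cytokine-signalling inhibitor Socs2 (0.84). Fam159a (1.29) and Jakmip1 (1.21) rose as well.

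**Figure D3:**
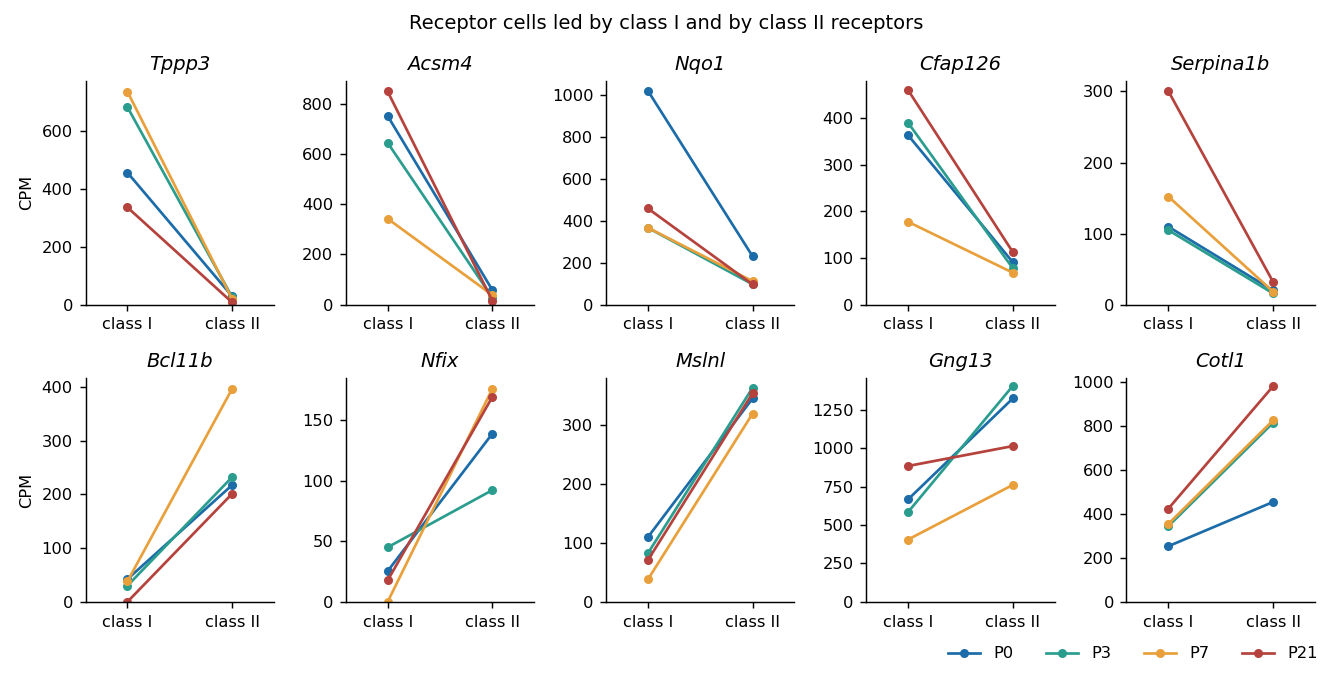
CPM of 5 genes higher (top) and 5 lower (bottom) in class I receptor cells, drawn left, than in class II receptor cells of the same library, drawn right; lines join the 2 classes of a library, coloured by age. All lines of the top row slope down to the right and all lines of the bottom row slope up, with Tppp3 at 336 to 735 CPM in class I cells and Bcl11b at 0 to 42.2 CPM.

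Bcl11b, a zinc-finger factor known in mice to govern the choice between class I and class II receptors, had the most negative difference. It stood at 42.2, 30.0, 38.0 and 0 CPM in class I cells at P0, P3, P7 and P21, against 217, 232, 396 and 201 CPM in class II cells. No class I library came near any class II library, and the log2 difference was -3.02 ± 0.29 (adjusted p = 3.2e-10, edgeR). A UMI of Bcl11b was found in 14.7%, 8.70%, 7.14% and 0% of class I cells, against 47.5%, 63.6%, 79.8% and 72.7% of class II cells. In stromal cells the share was 3.23%, 7.96% and 1.34% at P0, P3 and P7. Nfix, a nuclear factor I protein, stood at 25.3, 44.9, 0 and 17.7 CPM in class I cells, against 139, 92.1, 176 and 169 CPM in class II cells (log2 difference -2.35 ± 0.39, adjusted p = 3.4e-05, edgeR). Ebf1, which activates olfactory neuron genes, was the other transcription factor of receptor choice that fell, by 0.29 on the log2 scale, out of 11 tested.

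Gng13 stood at 667, 584, 405 and 883 CPM in class I cells, against 1323, 1404, 761 and 1013 CPM in class II cells. It was lower in class I within every library, although the P21 class I value exceeded the P7 class II value (log2 difference -0.91 ± 0.12, adjusted p = 8.1e-07, edgeR). Mslnl, a mesothelin-like gene that neighbours Gng13 on chromosome 17, stood at 109.7, 82.4, 38.0 and 70.7 CPM in class I cells, against 345, 363, 319 and 354 CPM in class II cells. Those groups did not overlap (log2 difference -2.10 ± 0.21). The 2 genes occupy chr17:25717171-25719406 and chr17:25736042-25748330. Cotl1, an actin-binding protein, stood at 253, 345, 355 and 424 CPM, against 454, 815, 826 and 981 CPM in class II cells (log2 difference -1.13 ± 0.13).

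The promoter windows of Acsm4 and Bcl11b are shown as a dorsal-zone gene and a factor of class choice that differed in opposite directions. They lie at chr7:119689776-119690075 on the plus strand and chr12:108003365-108003664 on the minus strand of GRCm38.p6, with 250 bases before and 50 after the start, and capitals again mark matches of the same motifs.
Acsm4: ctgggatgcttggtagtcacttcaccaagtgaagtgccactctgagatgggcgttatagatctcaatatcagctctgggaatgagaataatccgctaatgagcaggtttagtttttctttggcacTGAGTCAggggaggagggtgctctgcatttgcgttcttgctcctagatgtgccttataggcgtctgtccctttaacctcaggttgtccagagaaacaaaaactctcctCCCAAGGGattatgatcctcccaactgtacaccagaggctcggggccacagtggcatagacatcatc
Bcl11b: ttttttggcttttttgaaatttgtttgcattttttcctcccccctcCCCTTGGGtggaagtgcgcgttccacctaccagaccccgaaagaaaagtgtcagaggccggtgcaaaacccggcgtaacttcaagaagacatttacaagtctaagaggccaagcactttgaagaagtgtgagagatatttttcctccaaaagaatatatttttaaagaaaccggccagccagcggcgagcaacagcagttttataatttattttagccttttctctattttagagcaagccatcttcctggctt
The Acsm4 window held an AP-1 site 125 bases and an Olf/Ebf core 17 bases before the start. The Bcl11b window held an Olf/Ebf core 204 bases before the start. The core is thus in both windows, as in 13.4% of all promoters.

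The lists moved in mixed directions between the classes, and their counts stand against 3.68% higher and 3.85% lower among all genes. Of 20 growth cone genes tested 4 rose, namely Stmn2 (log2 difference 0.30), Stmn3, Stmn4 (0.72) and the neuronal tubulin Tubb3 (0.33), and 0 fell, with a list median of 0.11 against -0.00 over all genes. Of 14 alternatives, Stmn2 passed in 4, Tubb3 in 6, Stmn3 in 7 and Stmn4 in 12. Of 20 unfolded protein response genes 0 rose and 3 fell: Ppp1r15a, by 0.72 on the log2 scale (adjusted p = 0.00022, edgeR), Ddit3, by 0.58 (adjusted p = 0.0145), and Trib3, by 0.89. Of 14 alternatives Ddit3 passed in 8. Both Ppp1r15a and Ddit3 were among the genes higher in receptor cells than in receptor-free cells, and class I cells carried more receptor UMIs than class II cells. Whether receptor UMIs go with these genes within a class was not tested. Of 6 transduction genes the channel subunit Cnga2 rose (0.67) and Gng13 fell. Gfy, which helps receptors reach the surface, rose by 0.40 among 3 trafficking genes.

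Among 8 neuronal precursor genes Nhlh1 rose (0.86) and Trib3, which that list shares, fell. Among 12 chromatin genes Hmgb1 rose (0.41) and Hdac2 fell by 0.65, and among 7 axon genes Ncam1 rose (0.42) and Pcdh17 fell by 0.84. None passed among 15 cilia genes, 5 presynaptic genes, 18 oxidative phosphorylation genes, 3 immediate-early genes and 1 S phase gene. Ribosomal protein genes, a group drawn up after the data were seen, were lower in class I cells in 47 of 81 cases and higher in 0, against 3.85% lower among all genes, with a median of -0.37. DESeq2 called 13 of these 47, the fit without the block 2, and the cells with Nqo1 or Acsm4 10, while leaving out P3 or P7 left 21 or 26. Zfas1 and Gas5, which host small nucleolar RNAs, fell by 1.53 and 0.85 on the log2 scale. Further genes that fell were the methyltransferase Kmt5a (by 1.23), the linker histone Hist1h1c (by 1.14), Zfc3h1 (by 1.05), Commd3 (by 1.01), the protease inhibitor Serpine2 (by 0.95) and the lactate dehydrogenase subunit Ldhb (by 0.65).

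Class and zone overlap, so the classes were compared once more in cells with at least 1 UMI of Nqo1 or Acsm4 only, 27, 21, 11 and 9 class I cells and 59, 36, 39 and 4 class II cells. There 22 genes were higher and 30 lower of 2416, 49 of them also called in all cells, and all 180 genes called before kept their sign. Bcl11b remained lower, with a log2 difference of -3.90 ± 0.45 (adjusted p = 3.1e-08, edgeR), and Tppp3 higher, with 4.54 ± 0.26 (adjusted p = 3.4e-18, edgeR). Mslnl (-2.58), Gng13 (-1.23) and Nfix (-2.20) were also lower, and Cfap126 (1.46) was higher. With these fewer cells Fam159a (0.90), Jakmip1 (0.66), Socs2 (0.43), Zfas1 (-1.12), Gas5 (-0.56), Hist1h1c (-1.03), Commd3 (-0.85) and BC026585 (-1.30) did not pass, with the log2 differences given. A cell with a UMI of either gene is not thereby shown to be dorsal.

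In mature neurons of the same libraries part of these differences was still seen, as a description without a test. Class I numbered 24, 21, 41 and 42 mature neurons and class II 202, 178, 205 and 645. Tppp3 stood at 518, 352, 244 and 334 CPM in mature class I neurons, against 204, 273, 157 and 99.4 CPM in class II, a far narrower gap than in the immature cells. Bcl11b stood at 10.0, 10.4, 44.4 and 0 CPM in class I, against 64.5, 81.2, 124 and 58.2 CPM in class II. Both kept the direction of the immature cells at every age, although the Tppp3 intervals overlapped at P3 (244 to 492 CPM against 241 to 309 CPM). Nfix did so too, with 10.0, 62.1, 22.2 and 13.3 CPM in class I against 188, 208, 341 and 373 CPM in class II. Gng13 did not, with 5647, 7590, 5521 and 5197 CPM in class I against 6391, 7286, 5560 and 5162 CPM in class II, which crossed at P3 and P21. Cfap126 did not either, with 558, 456, 427 and 594 CPM in class I against 439, 450, 384 and 599 CPM in class II. Its classes were level at P3 and crossed at P21. Acsm4 and Nqo1 stayed higher and Mslnl and Cotl1 lower in class I at every age. Serpina1b had 2, 1, 0 and 0 UMIs in class I, too few to compare.

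Across ages the receptor cells differed in a small part of their transcripts. Measured as log2 of the ratio of CPM plus a pseudocount of 10, 41 of 3342 genes (1.23%) were at least 2-fold higher at P21 than at P0 and 91 (2.72%) at least 2-fold lower, with a median of -0.04 over all genes. With median-of-ratios scaling the counts were 25 higher and 138 lower and the median -0.18. Regulators of basic helix-loop-helix factors and the factor Cebpa were among the higher genes, and Cebpb and the stress gene Ppp1r15a among the lower. Each age is 1 library, P21 rests on 31 cells, and no test was possible.

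Id2 and Id3, inhibitors of basic helix-loop-helix factors, had the largest differences among genes higher at P21, apart from an uncertain retrocopy. At P0, P3, P7 and P21 Id2 stood at 57.3, 75.3, 74.4 and 315 CPM, and Id3 at 71.6, 98.1, 136 and 304 CPM. The P21 value was 5.50 times that at P0 for Id2 (3.64 to 8.34) and 4.24 times for Id3 (2.87 to 6.28), with the step lying mostly between P7 and P21. Non-neuronal cells held 196, 308, 253 and 287 CPM of Id2 and 429.9, 754, 651 and 244 CPM of Id3. For both genes the receptor cells lay below the non-neuronal cells at P0, P3 and P7. At P21 they lay somewhat above them, from 31 receptor cells and 143 non-neuronal cells of 1 library. The part of free RNA or of other cells in these values was not tested. Cebpa, a bZIP factor, stood at 40.4, 91.0, 90.5 and 160.2 CPM (log2 difference 1.76), while the related Cebpb stood at 141, 58.3, 56.9 and 11.1 CPM (log2 difference -2.84). These 2 genes of 1 family thus ran in opposite directions with age.

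**Figure D4:**
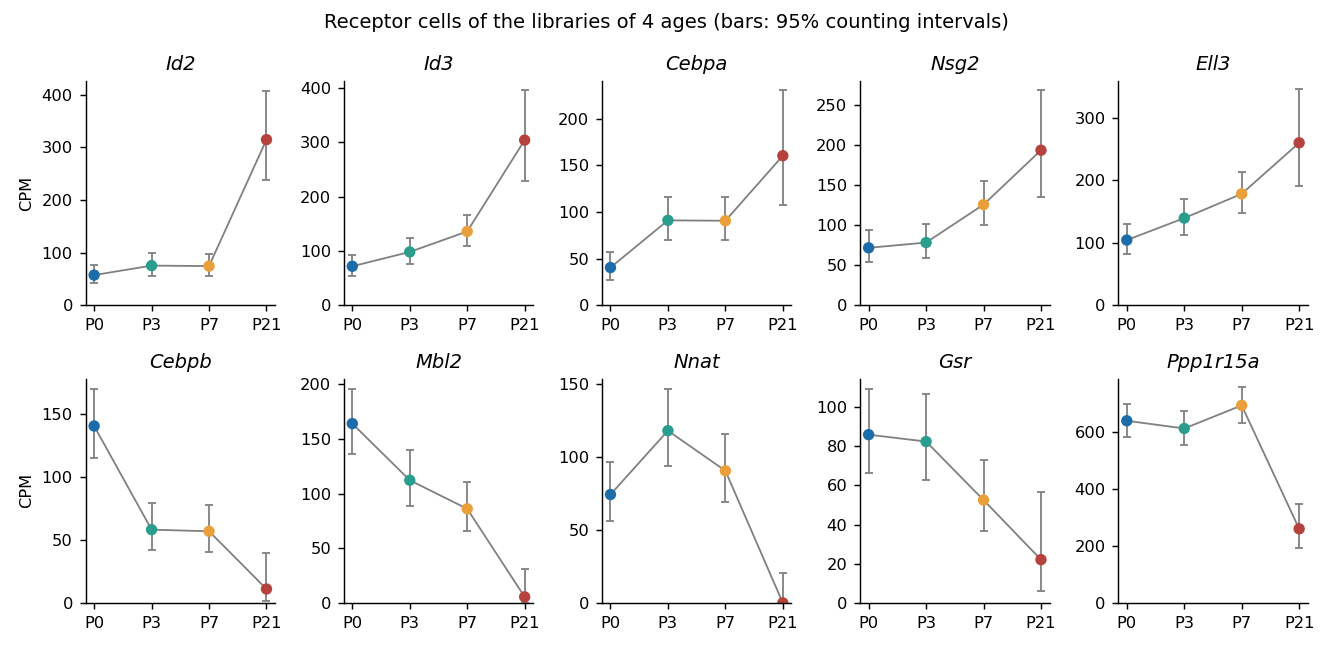
CPM in receptor cells at P0, P3, P7 and P21 of 5 genes higher at P21 (top) and 5 lower at P21 (bottom), 1 library per age, with error bars of 95% that cover counting error only. Id2 and Id3 step up to 315 and 304 CPM at P21, Cebpa and Cebpb run in opposite directions, and Ppp1r15a is low only at P21.

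The kinase Pim1 stood at 79.4, 145, 177 and 259.7 CPM, the junction protein F11r at 56.0, 68.2, 65.7 and 193 CPM, and Vwa5b2 had a log2 difference of 1.63. Of genes that were higher at each successive age, the neuronal endosomal protein Nsg2 stood at 71.6, 78.2, 126 and 193 CPM, the elongation factor Ell3 at 104, 139, 178 and 259.7 CPM, and the splicing-related Pnisr at 194, 347, 423 and 442 CPM. Krit1 and Lsm14a followed the same order. Serpina1b stood at 33.9, 32.7, 33.6 and 116 CPM, but it was high in class I cells, which made up 29.0% of the P21 cells, and without them its log2 difference was 0.49 in place of 1.52. Tpm3-rs7 had a log2 difference of 3.79, Dynlt1c of 1.38 and Dynlt1a of -2.62, and all have near-identical copies that leave their counts uncertain.

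On the lower side, the lectin Mbl2 stood at 164, 112, 86.1 and 5.53 CPM at P0, P3, P7 and P21. Neuronatin (Nnat), a small membrane protein of developing neurons, stood at 74.2, 118, 90.5 and 0 CPM, and Macrod1 at 56.0, 52.6, 46.7 and 0 CPM. These 3 genes were near or at 0 only in the P21 library. Gsr, glutathione reductase, was lower at each successive age, with 85.9, 82.4, 52.6 and 22.1 CPM, as were Kctd5, Polr3gl, Wdr83 and Ahsa2. Apoe stood at 54.7, 193, 89.0 and 5.53 CPM, against 2421 to 4382 CPM in non-neuronal cells of these libraries. Lsm10, Ddx27, Ube2o and Bglap3 were lower as well. Cwc22, at 56.0, 365, 314 and 171 CPM, was higher at P21 than at P0 but lower than at P3 and P7.

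Ppp1r15a stood at 638, 611, 692 and 259.7 CPM, and its P21 value was 0.41 times that at P0 (0.30 to 0.55). It was level over the first 3 ages and low at P21. The counts of list members that follow stand against 1.23% higher and 2.72% lower among all genes. Of the 22 unfolded protein response genes measured it and Asns were at least 2-fold lower, and the chaperone Calr, at 190.1, 401, 321 and 420 CPM, at least 2-fold higher. Of 20 growth cone genes Stmn4 was higher, with 224, 188, 204 and 481 CPM. Ebf4 was higher among 12 transcription factors, Dnmt3a lower among 15 chromatin genes, Pcdh17 and Tenm4 lower among 9 axon genes, and Bbs4 lower among 19 cilia genes. No gene passed 2-fold among 3 trafficking, 6 transduction, 9 precursor, 5 presynaptic, 18 oxidative phosphorylation, 2 zone, 3 immediate-early and 1 S phase genes.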

How the data were processed

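Single cells of 4 libraries, 1 per age, were measured by 3′ sequencing. The authors deposited UMI counts per gene and cell, made with Cell Ranger 2.1.1 on mm10 and with Seurat, per the submitters' processing notes; how multi-mapped reads and doublets were treated is not given in the sources used here, and no doublet caller was run. The cells, gene lists and comparisons were chosen with earlier results of these data known, and the class comparison was added after the data were seen.

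From these counts, UMIs were summed per library and cell group and scaled to CPM of all UMIs of the group. Gene differences were tested with edgeR 4.0.16 (quasi-likelihood, TMM, filterByExpr, library as block) in R 4.3.3, with Benjamini-Hochberg adjustment at 0.05. The block pairs groups taken from the same library. DESeq2 1.42.0 and other settings served as alternatives. Intervals are exact (Poisson, Clopper-Pearson, conditional binomial; 95%) and came from Python 3.11.15 and scipy 1.17.1. Ages were compared by ratio only, over genes with at least 50 CPM and 20 UMIs at P0 or P21, with a pseudocount of 10 CPM.

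Named genes were those with an adjusted p under 0.05, the same direction in all 4 libraries and at least 20 CPM in either group, taking the 10 largest changes and the 5 lowest p-values beyond them in each direction. For age they were the 10 largest ratios and 5 genes that moved at each step, each way. Olfr, gate, mitochondrial, ribosomal and unnamed genes were left out of the ranking, and list members and genes outside the direction rule are named as such; 1 gene that met the rule is not reported here. Class I was set by position with GENCODE gene places. On simulated counts of the receptor comparison over 2752 genes, edgeR recovered 66% of 2-fold and 91% of 4-fold changes, with 4 unchanged genes among 161 called. The simulation gave every gene and every sum the same spread, also the sums of few cells, so these rates need not hold for the real counts. RefSeq promoters were found for 13 of 14, 23 of 30 and 25 of 30 genes named for receptor, class and age.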

Additional observations from a re-analysis of the deposited data

Results flagged for a closer look

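Trace amine-associated receptor genes lay outside the main measurement and gave a signal in the receptor-free cells: 4 of 70 held 2 or more Taar UMIs, against 0 of 494 receptor cells, 0 of 150 intermediate cells and 0 of 776 stromal cells. Each of the 4 cells held 3 UMIs of 1 gene, Taar9 in 3 cells and Taar6 in 1, and the cells themselves held 4404, 4270, 5072 and 6648 UMIs. Without these cells the comparison with receptor cells called 9 genes higher and 9 lower, 15 of them among the 18 called with all cells.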

How the results depend on the processing

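Receptor cells against receptor-free cells was the least stable comparison. Instead of 9 higher and 9 lower genes there were 0 and 0 with DESeq2 (lowest adjusted p 0.147), 0 and 0 in depth-matched cells, 0 and 1 without the replicate block, 0 and 1 with at least 10 Gap43 UMIs, 3 and 4 with 0 Omp UMIs, 5 and 5 without cells lacking Gng8, and 1 and 4 without P21 over the same genes. Without a filter on low counts 26 were lower, and 5 were higher with the receptor limit at 2 UMIs or without cells of other types' markers. In cells of 3000 to 9000 UMIs 7 were higher and 7 lower, and with the receptor limit at 5 UMIs 12 and 13. Leaving out 1 library gave 0 to 3 higher and 0 to 6 lower; P21 took both to 0. The 14 genes named by the rule kept their sign in all 275 values and missed the threshold in 141, and the causes were not tested. Among called genes outside that rule, the log2 difference of Nqo1 fell to -0.024 and that of Bglap3 to -0.27 at the lowest.

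Between the classes there were 21 and 25 with DESeq2, 54 and 157 without a filter, 20 and 10 without the replicate block, and 22 and 30 in cells with Nqo1 or Acsm4. Leaving out 1 library gave 37 to 100 higher and 43 to 113 lower. Named genes kept their sign in all 406 values and missed the threshold in 31.

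The share with a receptor at P0 was 72.4% at 2 UMIs, and 72.6% with that limit in cells thinned to 3000 UMIs. At 5 UMIs it was 50%, 58.9% and 67.5% at P0, P3 and P7. Cells with several receptors made up 12.8% counted at 2 UMIs. Counted at 1 UMI they made up 46.8% of all receptor cells, and 42.3%, 46.3%, 54.4% and 48.4% by age.

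For age, 18 genes were higher and 18 lower with a pseudocount of 50, 72 and 210 with no CPM minimum, and 25 and 138 with median-of-ratios scaling. With P3 or P7 as the early age 22 were higher, and without class I cells 139 were lower. Against P3 and P7, Cwc22 turned to -1.05 and -0.84 and Dynlt1a to 0.71 and 0.88.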

Other observations

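Between the classes 2 further transcription factor genes passed the edgeR test over all genes and were chosen after their values were seen. The homeobox gene Shox2 was higher in class I cells, with a log2 difference of 0.99 (adjusted p = 0.042), in 4 of 4 libraries. Fezf1, a zinc-finger factor of olfactory development, was lower, by 1.20 on the log2 scale (adjusted p = 0.0332), in 3 of 4 libraries. Shox2 passed in only 4 of 12 alternatives and Fezf1 in 6 of 13, and in 0 and 1 of the 4 that left out a library.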
